A study of Gallus gallus with 6 samples.

Results

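The 10 genes described here carry the methionine salvage pathway and the synthesis of polyamines: MTAP, MRI1, APIP, ENOPH1, ADI1, ODC1, AMD1, SRM, SMS and MAT2A. They were chosen by name, as a pathway in which ENOPH1 had stood out between the feed efficiency groups of these same birds. Of the 10 names, 9 were found among the 24356 genes listed, and all 9 were among the 14282 genes tested, which had a mean FPKM of at least 0.5. MAT2A was not found by symbol, and 2 rows described as methionine adenosyltransferase 2A are given in its place. Because the difference between the groups was used to pick the pathway, the fold changes of its members are a description, and no p-value of a single member is given. Counts of calls are given only beside the share of all genes called.

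The samples were jejunum from Korat chickens aged 10 weeks, with 1 RNA-seq library per bird. The low-FCR group held 3 birds (L1, L2 and L3) and the high-FCR group held 3 birds (H1, H2 and H3). FCR, the feed conversion ratio, is feed eaten per unit of weight gained, so a low-FCR bird needs less feed. The Korat line crosses a Thai indigenous chicken line with a broiler line. The study describes the birds as males that were caged singly, fed the same diets and fasted before sampling, and picked for extreme FCR, so the groups differ by ranking and not by a treatment. The label of H3 reads low-FCR beside the code H3, and it was kept with the high-FCR birds, as its code and the study have it. L1 had 16140 counts on chromosome W, the chromosome found in females, while the other 5 libraries had 48 to 80. The log2 FC of each of the 9 genes was therefore also computed without L1 and without H3.

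Methionine salvage is the route by which cells take back the sulfur and methyl group of methionine after polyamines have been made. Spermidine and spermine are built by adding aminopropyl groups taken from decarboxylated S-adenosylmethionine, and each addition releases 1 molecule of methylthioadenosine. In mammals, MTAP splits methylthioadenosine, MRI1 and APIP rearrange and dehydrate the remaining sugar phosphate, ENOPH1 acts on the product as enolase and phosphatase, and ADI1 forms the keto acid that is turned back into methionine. ODC1 makes putrescine, AMD1 makes the aminopropyl donor, SRM makes spermidine and SMS makes spermine. The intestinal lining renews its cells throughout life and has a known need for polyamines.

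Total counts ranged from 10436038 to 11370043 per library and the TMM scaling factors from 0.870 to 1.06. Levels between birds are given as CPM, counts scaled to a common library size after TMM, and levels between genes as FPKM, which also divides by exon length. A log2 FC is low-FCR over high-FCR, and its error is a standard error (SE) from edgeR. Over all genes tested the median log2 FC was 0.016, and it was -0.08 with total counts in place of TMM. Each of the 9 genes had at least 290 counts in every library, and counting error alone would give a coefficient of variation (CV) of 3.45% to 5.24%. Counting error leaves out copies made by PCR, since no molecular identifiers were used. Markers of absorptive enterocytes were present in every library, as were those of smooth muscle and lymphocytes. In whole tissue, fewer cells of a type and less RNA per cell cannot be told apart.

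ENOPH1, the enzyme at the enolase and phosphatase step, was lower in every low-FCR bird than in every high-FCR bird. Its levels were 50.9, 49.9 and 34.9 CPM in L1, L2 and L3, against 121, 79.2 and 88.7 CPM in H1, H2 and H3. The lowest high-FCR bird was 28.2 CPM above the highest low-FCR bird. The means were 45.3 ± 8.96 CPM in the low-FCR group and 96.3 ± 21.8 CPM in the high-FCR group (SD, n = 3 each), with a log2 FC of -1.09 (SE 0.26). The high-FCR mean was thus 2.13 times the low-FCR mean. In raw reads these levels were 502, 559 and 382 counts in low-FCR birds, against 1386, 954 and 1007 counts in high-FCR birds. Of all genes tested, 6.51% had a log2 FC of larger size than that of ENOPH1.

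None of the other 4 salvage genes separated the groups. MTAP, the entry enzyme, lies on chromosome Z and had 34.1, 65.3 and 46.5 CPM in low-FCR birds, against 44.3, 63.97 and 57.4 CPM in high-FCR birds (log2 FC -0.18, SE 0.29). L1 was the lowest of the 6 birds. The 652 genes tested on chromosome Z were lower in L1 than in the mean of the other birds by a median log2 difference of -0.51, with quartiles of -0.99 and -0.06, while that of autosomal genes was 0.02. MTAP itself was at -0.68 in L1. Its log2 FC was 0.01 without L1, -0.48 without L2, -0.32 without H1 and -0.06 without H2.

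MRI1, the isomerase, had 64.8, 49.3 and 132 CPM in low-FCR birds, against 66.8, 61.7 and 80.0 CPM in high-FCR birds. L3 was the highest and L2 the lowest of all 6 birds, so the low-FCR range enclosed the high-FCR range. The log2 FC was 0.24 (SE 0.36) over all 6 birds, -0.28 without L3, 0.48 without L2, 0.38 without L1 and 0.16 without H2. APIP, the dehydratase, had 29.4, 48.7 and 32.3 CPM in low-FCR birds, against 37.3, 43.5 and 34.1 CPM in high-FCR birds (log2 FC -0.06, SE 0.27). L2 was its highest bird and L1 its lowest, and its log2 FC was -0.34 without L2, -0.13 without H3, 0.08 without L1, 0.03 without L3 and 0.04 without H2. ADI1, the dioxygenase that forms the keto acid, had 37.6, 83.3 and 40.2 CPM in low-FCR birds, against 44.6, 78.7 and 56.8 CPM in high-FCR birds (log2 FC -0.16, SE 0.36). L2 and H2 were the high birds of ADI1 in their groups, and its log2 FC ran from -0.65 without L2 to 0.08 without H2, with -0.33 without H1, 0.04 without L1 and 0.01 without L3.

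Of the polyamine genes, SRM, the spermidine synthase, was the second gene whose groups did not overlap. It had 29.8, 31.8 and 28.0 CPM in low-FCR birds, against 35.3, 35.2 and 35.4 CPM in high-FCR birds. The means were 29.9 ± 1.905 CPM in the low-FCR group and 35.3 ± 0.124 CPM in the high-FCR group (SD, n = 3 each), and the log2 FC was -0.24 (SE 0.22). The SD of the 3 high-FCR birds was smaller than counting error alone, a CV of 5.24%, would give on average. The gap between the groups was 3.4 CPM. Exact Poisson 95% intervals, from counting error alone, were 26.5 to 33.4 CPM in L1 and 28.6 to 35.3 CPM in L2. Both overlapped that of H2, 31.9 to 38.7 CPM, while that of L3, 24.9 to 31.3 CPM, lay below it. The log2 FC of SRM ran from -0.31 to -0.20 when each library was left out in turn, in groups that did not overlap.

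ODC1, the decarboxylase at the head of polyamine synthesis, had 48.1, 63.8 and 59.9 CPM in low-FCR birds, against 53.8, 77.2 and 87.4 CPM in high-FCR birds. The groups overlapped through H1, and the log2 FC was -0.35 (SE 0.25). It was -0.02 with H3, the highest bird, grouped as low-FCR, -0.19 without H3 and -0.52 without H1. AMD1, which makes the aminopropyl donor, had 35.1, 34.2 and 39.7 CPM in low-FCR birds, against 26.4, 46.9 and 35.4 CPM in high-FCR birds. The high-FCR range enclosed the low-FCR range and the log2 FC was 0.0031 (SE 0.27), with -0.18 without H1 and 0.23 without H2. SMS, the spermine synthase, had 43.6, 39.6 and 55.6 CPM in low-FCR birds, against 41.2, 49.4 and 41.1 CPM in high-FCR birds, with a log2 FC of 0.08 (SE 0.24). L3 was its highest bird and L2 its lowest, and the log2 FC ran from -0.08 without L3 to 0.17 without H2.

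**Figure D1:**
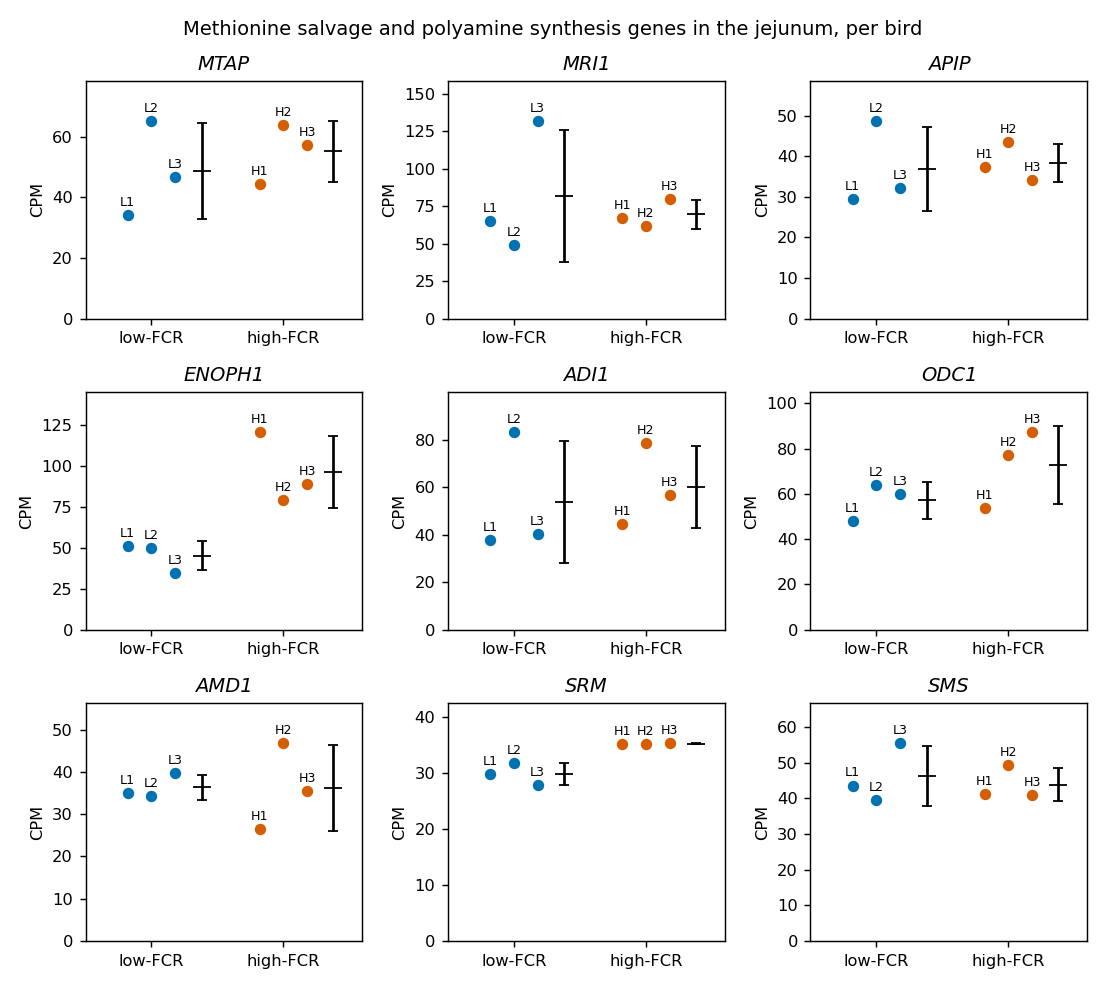
Level of each of the 9 genes in CPM (vertical axes from 0, scaled per gene), with 1 point per bird, low-FCR birds left of high-FCR birds, and the mean with its SD beside each group. ENOPH1 lies between 34.9 and 50.9 CPM in the low-FCR birds and between 79.2 and 121 CPM in the high-FCR birds, SRM is apart by 3.4 CPM, and the other 7 genes overlap.

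Counted over the 9 genes, 3 had a positive and 6 a negative log2 FC, with a median of -0.16. Of all genes tested, 48.2% had a negative one. The split among the 9 was 6 positive and 3 negative without L1 and 5 and 4 without H2. It was 1 and 8 with total counts in place of TMM. With edgeR's quasi-likelihood test and Benjamini-Hochberg adjustment over all genes, 0 of the 9 had an adjusted p under 0.05, against 0% of all genes, and the smallest adjusted p of any gene was 0.997. At an unadjusted p under 0.05 there was 1 of 9, the selected gene, against 3.24% of all genes. With H3 grouped as low-FCR there was 0 of 9, against 2.18% of all genes. DESeq2 called 0 of the 9 after adjustment and 0.056% of all genes. The low-FCR birds were all below the high-FCR birds in 2 of the 9, ENOPH1 and SRM, against 3.4% of all genes in that direction and 6.36% in either direction, and in 0 of the 9 they were all above. ENOPH1 was selected on this contrast, so nothing is read from these counts. The p-values cover the spread between 3 birds a group.

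Grouping and single libraries changed the size of the ENOPH1 difference. The groups did not overlap in this gene, selected on the same contrast, so leaving out libraries could not turn the sign. The log2 FC of ENOPH1 was -1.19 without L1, -1.14 without H3 and -1.23 without both. It was -0.83 with H3 moved to the low-FCR group, and the groups then overlapped, since H3 lies above H2. Without 1 library in turn the value ran from -1.21 without H2 to -0.89 without H1.

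**Figure D2:**
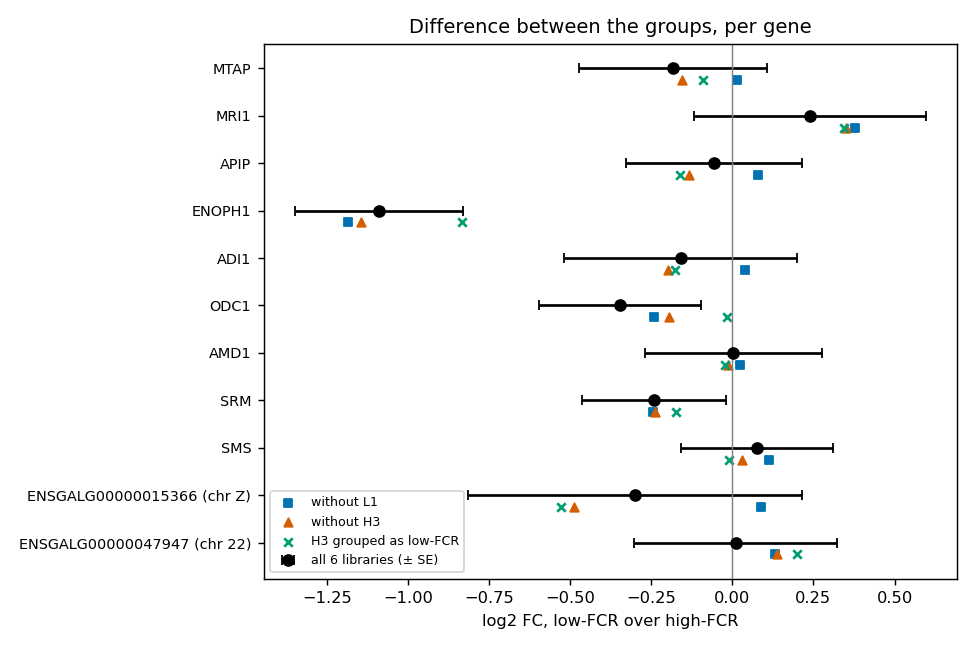
The log2 FC (low-FCR over high-FCR, horizontal axis) with its SE for the 9 genes and the 2 rows described as methionine adenosyltransferase 2A, from all 6 libraries (black), without L1 (squares), without H3 (triangles) and with H3 grouped as low-FCR (crosses). ENOPH1 lies between -1.19 and -0.83 in these 4 settings, while ODC1 is at -0.35 with all libraries and at -0.02 with H3 regrouped.

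MAT2A makes S-adenosylmethionine, from which the aminopropyl donor is formed. The row ENSGALG00000015366 on chromosome Z had 15.3, 30.6 and 75.1 CPM in low-FCR birds, against 48.9, 64.3 and 36.0 CPM in high-FCR birds (log2 FC -0.30, SE 0.52). RefSeq names that gene MAT2L. Its highest level was 4.91 times its lowest, more than in any of the 9 genes, with both ends in the low-FCR group. Its log2 FC was 0.09 without L1, where it was 1.65 below the other birds on the log2 scale, and -1.11 without L3. The row ENSGALG00000047947 on chromosome 22 had 10.1, 12.9 and 14.3 CPM in low-FCR birds, against 11.7, 10.9 and 14.5 CPM in high-FCR birds, with a log2 FC of 0.01 (SE 0.31). How reads shared by these rows were counted is not given in the sources used here.

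In GRCg6a, the build used by the study, ENOPH1 spans chr4:46397282-46402835 on the minus strand. It overlaps at both ends with genes of the plus strand, TMEM150C by 290 bases and HNRNPDL by 660 bases. TMEM150C, a membrane protein, had 41.4, 33.3 and 21.2 CPM in low-FCR birds, against 53.4, 32.0 and 43.3 CPM in high-FCR birds (log2 FC -0.43, SE 0.32). HNRNPDL, an RNA-binding protein, had 755, 837 and 671 CPM in low-FCR birds, against 974, 694 and 779 CPM in high-FCR birds (log2 FC -0.11, SE 0.26). The groups overlapped in both neighbours, and H1 was the highest bird in both, as in ENOPH1. The strand setting of the read counting is not given in the sources used here, so reads from the overlaps may not be told apart. HNRNPD, 3414 bases away, had a log2 FC of -0.39 (SE 0.30), and its groups overlapped.

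SRM (chr21:4116739-4124448) shares 746 bases with EXOSC10, an RNA exosome subunit on the same strand, with a log2 FC of -0.06 (SE 0.22). MRI1 (chr30:1401250-1406051) shares 383 bases with CCDC130 on the same strand. CCDC130 had 24.8, 50.7 and 94.3 CPM in low-FCR birds, against 48.8, 35.3 and 59.9 CPM in high-FCR birds, and L3 was its highest bird too. On the same strand, 164 bases from MRI1, lies a C19orf53 homolog whose highest bird was L1. It had 103, 46.6 and 92.8 CPM in low-FCR birds, against 55.9, 42.1 and 62.6 CPM in high-FCR birds. Its log2 FC was 0.59 (SE 0.32), and its groups overlapped. Next to APIP (chr5:19085949-19098880), 123 bases away on the other strand, PDHX had 13.1, 16.0 and 15.6 CPM in low-FCR birds, against 20.9, 20.1 and 19.4 CPM in high-FCR birds (log2 FC -0.43, SE 0.27). The groups did not overlap in PDHX, a subunit of the pyruvate dehydrogenase complex, as in 3.4% of all genes in that direction. They overlapped in APIP. MTAP (chrZ:78808957-78841432), ADI1 (chr3:93689037-93695541), ODC1 (chr3:96780811-96788676), AMD1 (chr3:66336846-66352648) and SMS (chr1:120425336-120468539) overlapped no other listed gene. RNASEH1, 1989 bases from ADI1 on the same strand, had a log2 FC of 0.06 (SE 0.21), with overlapping groups.

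Per exon length, the salvage enzymes were both the highest and the lowest of the pathway. MRI1 averaged 73.1 FPKM over the 6 birds and ADI1 36.8, followed by MTAP at 31.6, ODC1 at 30.4, ENOPH1 at 22.4, AMD1 at 18.8, SMS at 18, SRM at 12.5 and APIP at 10.5 FPKM. Of all genes tested, 92.8% had a lower mean FPKM than MRI1 and 51.3% a lower one than APIP. Neighbours in this order were compared within birds on log2(FPKM + 0.5) by a two-sided exact sign-flip permutation test, whose smallest possible p with 6 birds is 0.0312. Only SMS over SRM had the same sign in 6 of 6 birds, by 0.50 ± 0.28 on the log2 scale (SD, n = 6, exact p = 0.0312, adjusted p = 0.167 over 8 pairs). MRI1 exceeded ADI1 in 5 of 6 birds, by 0.98 ± 0.86 (SD, n = 6, exact p = 0.0625, adjusted p = 0.167). None of the 8 neighbouring pairs passed after adjustment. Most of the 8 would have had to reach the smallest possible p for any to pass. The order itself was taken from the same values, so nothing is read from this outcome.

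The position of ENOPH1 in this order differed between birds. It was the seventh of the 9 genes by FPKM in each of L1, L2 and L3, while in H1 it ranked 2 and in H2 and H3 it ranked 5. Of the summed FPKM of the 5 salvage genes, ENOPH1 made up 12.2%, 9.27% and 5.48% in low-FCR birds, against 22.7%, 13.4% and 15.1% in high-FCR birds. These shares restate the contrast that selected the gene.

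**Figure D3:**
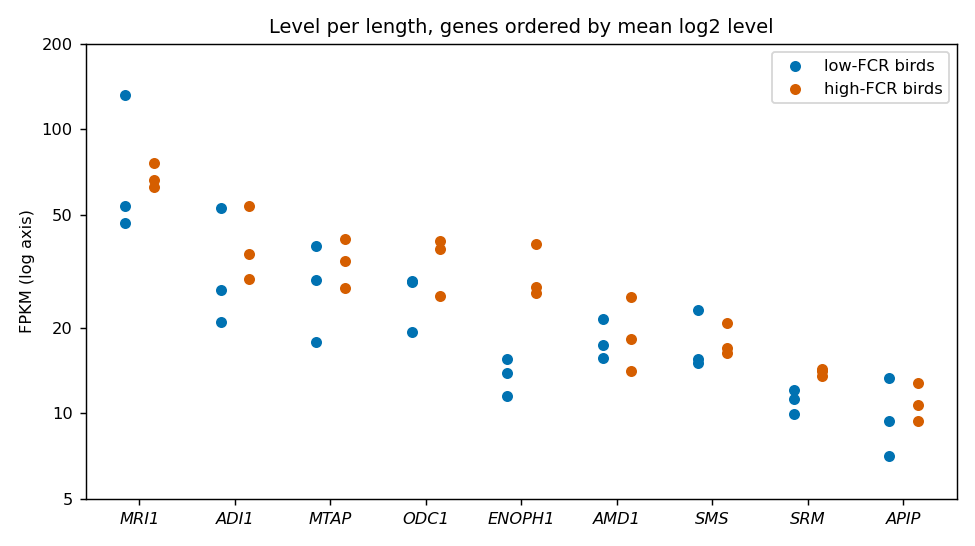
FPKM of the 9 genes (vertical log axis), ordered by mean log2 level, with low-FCR birds left of high-FCR birds and 1 point per bird. MRI1 lies highest with a mean of 73.1 FPKM and APIP lowest with 10.5 FPKM, and most neighbours in the order overlap.

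The genes also differed in how much they varied from bird to bird. ENOPH1 had the highest CV of CPM over the 6 birds, 44.8%, and MRI1 (38.6%) and ADI1 (34.9%) followed. The value for ENOPH1 includes the group difference that selected it: within the groups its CV was 19.8% in low-FCR birds and 22.7% in high-FCR birds. That of MRI1 was 53.6% in low-FCR birds and 13.6% in high-FCR birds, and that of ADI1 was 47.7% in low-FCR birds and 28.7% in high-FCR birds. SRM had the lowest, 9.87%, and SMS was at 13.8%. The highest bird had 3.46 times the level of the lowest for ENOPH1 and 1.27 times for SRM. Over both groups on the log2 scale, 80.0% of all genes tested had a smaller SD than ENOPH1 and 4.04% a smaller SD than SRM. For all 9 genes the CV over the 6 birds was above that of counting error. For SRM it includes the difference between the groups. Within the groups the CV of SRM was 6.38% in low-FCR birds and 0.35% in high-FCR birds, against 5.24% from counting error.

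Members were compared with each other over the 6 birds by correlation of log2 CPM, as 36 pairs. Of these, 23 were positive, the median Pearson's r was 0.19, and 0 passed the adjustment. With 6 birds the orderings are too few for 1 pair alone to pass, however close its relation. Nothing is therefore read from this count. MTAP and ADI1, the entry enzyme and the dioxygenase of salvage, had Pearson's r of 0.92 (exact permutation p = 0.00833, adjusted p = 0.217) and Spearman's rho of 0.94 (exact permutation p = 0.0167). Without L1 and L2, the birds farthest from the median of MTAP, r was 0.95. APIP and ADI1 had r of 0.92 (exact permutation p = 0.0153), which was 0.56 without L2 and H2. ENOPH1 and SRM both split the birds by group, and no pooled r is given for them. Relations within a group of 3 birds were not computed.

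Levels of cell type markers differed between the libraries. Correlations with them are given below, but their part in the group differences of these genes was not tested. Of 13 markers of absorptive enterocytes, 12 had a positive log2 FC, and their summed level was 7107 to 17780 CPM in low-FCR birds, against 3431 to 14889 CPM in high-FCR birds. All 11 markers of proliferating crypt cells had a negative log2 FC, with sums of 576 to 890 CPM in low-FCR birds, against 611 to 1020 CPM in high-FCR birds. Of 9 lymphocyte markers, 8 had a negative log2 FC, with sums of 903 to 1793 CPM in low-FCR birds, against 1596 to 2426 CPM in high-FCR birds. Of 8 smooth muscle markers, 7 had a positive log2 FC, with sums of 4830 to 19315 CPM in low-FCR birds, against 6179 to 12631 CPM in high-FCR birds. The 4 markers of the distal small intestine all had a positive log2 FC, with sums of 79.3 to 4834 CPM in low-FCR birds, against 55.3 to 718 CPM in high-FCR birds. L1 was the low-FCR bird with the highest sum for enterocytes, smooth muscle and the distal intestine and the lowest for lymphocytes. Without it the low-FCR sums were 7107 to 13015 CPM for enterocytes, 4830 to 7586 CPM for smooth muscle, 79.3 to 502 CPM for the distal intestine and 1668 to 1793 CPM for lymphocytes. The distal sum mostly follows FABP6, which made up 4587 of the 4834 CPM in L1. L1 was the highest bird for FABP6 and SLC51A, while L3 was the highest for SLC10A2 and HOXA9. L3 had 121 CPM of SLC10A2, and no high-FCR bird exceeded 21.7 CPM. For HOXA9 it had 10.8 CPM, and no high-FCR bird exceeded 1.83 CPM. SLC10A2, the bile acid transporter of the ileum, was at 0 counts in L2, and no other marker tested was at 0.

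The 9 genes were set against these 5 marker lists, giving 45 relations, of which 0 passed the adjustment. With so few birds the orderings are too few for a single relation to pass alone, however close. Nothing is therefore read from this count. MTAP had r of -0.94 with smooth muscle (exact permutation p = 0.00417, adjusted p = 0.188, rho -0.94), and -0.77 without L1 and L2. Its r was also 0.80 with lymphocytes, -0.77 with the distal small intestine and 0.74 with proliferating crypt cells. L1, the lowest bird for MTAP, was the highest for smooth muscle markers. ODC1 had r of -0.90 with absorptive enterocytes (exact permutation p = 0.0125, adjusted p = 0.281, rho -0.94), and -0.73 without L1 and H3. It was not close to this list alone. Its r was 0.83 with lymphocytes (rho 0.94), and 0.29 without L1 and H3. With proliferating crypt cells it was 0.79, and 0.85 without L1 and H3. H3, the highest bird for ODC1, was the lowest for absorptive enterocytes and the highest for lymphocytes.

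Around the 2 pathways, 8 lists of related genes held 71 names, of which 54 were listed and 50 tested. Of the 50, 25 had a positive and 25 a negative log2 FC, the median was 0.00085, and 1 had an unadjusted p under 0.05, against 3.24% of all genes. The groups did not overlap in 2 of the 50, against 6.36% of all genes. None passed edgeR's adjustment. From each list the genes with the highest and the lowest log2 FC are given, and values without single libraries follow at the end.

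Of the 12 genes tested of the methionine and transsulfuration cycle, 7 were higher and 5 lower. MMACHC, which prepares cobalamin for methionine synthase, was at the top with 8.52, 5.36 and 15.1 CPM in low-FCR birds, against 2.18, 3.07 and 3.00 CPM in high-FCR birds (log2 FC 1.81, SE 0.48). Its groups did not overlap, and it was the 1 gene with an unadjusted p under 0.05. The study had already reported MMACHC as higher in the low-FCR group of these same birds, so both restate a known result. MTR, methionine synthase itself, was at the bottom with a log2 FC of -0.40 (SE 0.32). Of 6 genes that return the keto acid or reuse the nucleobase, 2 were higher and 4 lower, from APRT, which salvages the adenine that MTAP releases, at -0.29 to the amino acid oxidase IL4I1 at 0.29.

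Polyamine breakdown was represented by 3 genes, 2 higher and 1 lower. SAT1, the acetyltransferase that starts breakdown, had 660, 481 and 541 CPM in low-FCR birds, against 490, 382 and 521 CPM in high-FCR birds (log2 FC 0.27, SE 0.26), with overlapping groups. Spermine oxidase, SMOX, was at -0.06. The antizymes and their inhibitors, which set the stability of the ODC1 protein, ran from AZIN2 at -0.45 (SE 0.42) to OAZ2 at 0.24 over 3 genes. Of 6 genes of ornithine and arginine supply, 5 were higher and 1 lower, from ASS1, argininosuccinate synthase, at -0.66 (SE 0.49) to AGMAT, agmatinase, at 0.70 (SE 0.60).

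The hypusine pathway, which uses spermidine to modify a translation factor, had 2 genes tested, DOHH at 0.40 and EIF5A2 at 0.35. Of 8 genes listed under polyamine and amino acid transport, 1 was higher and 7 lower, the 7 including ATP13A3 at -0.0019 and CAV1 at -0.01. The 1 was SLC7A2, a cationic amino acid transporter, at 1.34 (SE 0.80), which had 8.83 CPM in L1 and 0.89 to 2.29 CPM in the other 5 birds, and the lowest was SLC7A5 at -0.33. The MYC network, known for activating ODC1 in mammals, had 5 of 10 higher, from MXD4, a MYC antagonist, at -0.50 (SE 0.34) to MYCL at 0.54. MXD4 was the second related gene whose groups did not overlap, and MYC was at -0.07.

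Several of these ends of the lists rested on 1 library. Without L1, which had 56.8 CPM of DOHH against 28.5 and 26.1 CPM in L2 and L3, the log2 FC of DOHH was -0.05. Without L1, AGMAT was at 0.22, OAZ2 at 0.04, SAT1 at 0.13, SMOX at 0.23, SLC7A5 at -0.04 and EIF5A2 at 0.22, and SLC7A2 no longer passed the filter on low values. APRT was at -0.03 without H3, IL4I1 at -0.06 without L2, SLC7A5 at 0.10 and SMOX at 0.01 without H2, and AZIN2 at -0.10 without L3. ASS1 was at -1.47 without L2 and -0.32 without L3, MTR at -0.75 without L2 and -0.22 without H1, and MXD4 at -0.21 without L3. MMACHC, whose groups did not overlap, ran from 1.34 without L3 to 2.08 without L2.

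**Figure D4:**
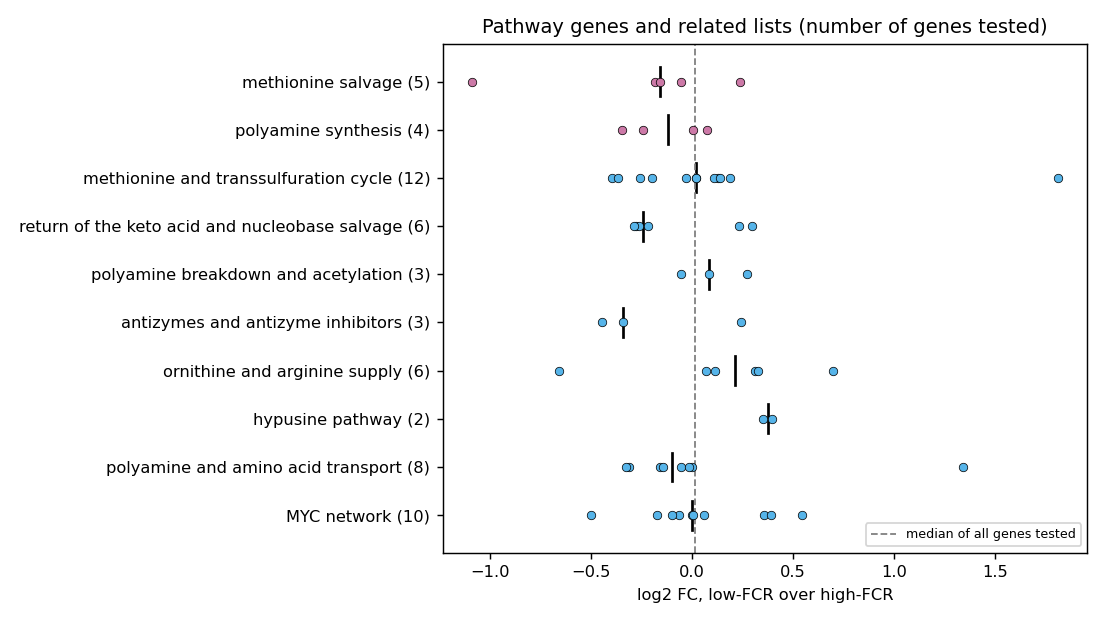
The log2 FC (low-FCR over high-FCR, horizontal axis) of each gene tested, 1 row per list with the number of genes in brackets, a short black bar at the median of the list and a dashed line at the median of all genes. ENOPH1 at -1.09 is the point farthest left of all lists, and MMACHC at 1.81 and SLC7A2 at 1.34 are the points farthest right.

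Among 11130 tested genes with a symbol, 12 had a Pearson's r of log2 CPM with ENOPH1 above 0.95 over the 6 birds. The 5 closest were NKIRAS1 (0.99), CCDC191, KIZ, ENKUR and ANKRD13B (each 0.97). None of them is a gene of the pathways above. Since ENOPH1 separates the groups, such an r includes the group difference and is given as a description. With 6 birds and 11130 genes compared, values this high can also arise between unrelated genes. How many would do so was not computed, so nothing is read from the 12. ENKUR was at only 0.64 to 2.53 CPM. NKIRAS1, an inhibitor of NF-kappa-B signalling, had 7.30, 7.41 and 4.85 CPM in low-FCR birds, against 14.5, 9.71 and 10.5 CPM in high-FCR birds. Its lowest bird was L3 and its highest H1, as in ENOPH1, a match to which its selection by r leads. ANKRD13B had 12.99, 13.9 and 9.87 CPM in low-FCR birds, against 34.7, 17.0 and 26.5 CPM in high-FCR birds, with a log2 FC of -1.09 (SE 0.34).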

How the data were processed

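Jejunum RNA-seq of 6 birds, 1 library each, was analysed. The authors used Cutadapt 1.9.1 for trimming, HISAT2 2.0.1 for mapping to GRCg6a and HTSeq 0.6.1 for read counts per gene. The deposited counts are whole numbers and were analysed as deposited. For the deposited FPKM the authors divided counts by exon length and library total (checked on the values to within 0.005).

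Groups were taken from the sample labels, and H3, whose label holds both groups, by its code. The comparison used edgeR 4.0.16 in R 4.3.3 (TMM, quasi-likelihood test, Benjamini-Hochberg adjustment) over genes whose mean FPKM was 0.5 or more. The SE of a log2 FC is its size over the square root of F. A count of 3 equals 0.249 to 0.304 CPM. Alternatives used DESeq2 1.42.0, limma 3.58.1 on log2(FPKM + 0.5), other scalings, filters and pseudocounts, the replicate number as a block, libraries left out and H3 regrouped. MAT2A was unmatched, so 36, 45 and 8 comparisons were adjusted together. RefSeq was used for gene names. The edgeR test was tested on simulated data.

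The members and lists were chosen with earlier results of these data known. Named were the members, the highest and lowest log2 FC of each list and the 5 genes closest to ENOPH1. Of the genes within 5000 bases of a member, some were named and others were not.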

Additional observations from a re-analysis of the deposited data

How the results depend on the processing

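The log2 FC of ENOPH1 ranged from -1.23 to -0.83 over all alternatives. Its groups did not overlap, so leaving out libraries could not turn its sign. The number of genes with an unadjusted p under 0.05 was 463, or 3.24% of those tested. It was 710 (3.56% of the larger number tested) with no filter on low values and 242 (1.69%) without L1 and H3. Leaving out 1 library gave 291 (2.04%, without H2) to 1427 (9.96%, without L2) genes, with 305 (2.13%) without H3. The number with an adjusted p under 0.05 was 0 with edgeR, 8 with DESeq2 and 7 with limma on log2(FPKM + 0.1). The replicate numbers were not treated as pairing the birds. The correlation of same-numbered birds' deviations was 0.19 (L1 and H1), 0.17 (L2 and H2) and 0.01 (L3 and H3). Between birds of different number it ran from -0.26 to 0.11. With the replicate number as a block 2 genes passed adjustment, 553 had an unadjusted p under 0.05 and ENOPH1 was at -1.09. The median log2 FC of the members was -0.16, against -0.31 with limma on log2(FPKM + 0.5), -0.31 on log2(FPKM + 0.1), where the median of all genes was -0.10, and 0.012 without L1 and H3. Leaving out 1 library gave -0.34 (without L2) to 0.043 (without H2), with 0.024 without L1. Between neighbouring genes in the order of FPKM, the number of pairs with the same sign in every bird was 1, and 1 to 3 without 1 library. The cause of these shifts was not tested. Leaving out libraries for the related genes was a choice made after seeing the data. At this depth, counting error was below the spread over the 6 birds for all 9 members. For SRM it was above the spread within the high-FCR birds.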
